A study of Mus musculus with 2 samples.

Results

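T cells found among blood cells of young and old mice are described here, 282 cells in all, of 26438 barcodes that passed a filter and 27933 deposited. They were chosen by their transcripts. A UMI (unique molecular identifier) stands for 1 captured RNA molecule, and barcodes with under 200 genes or over 20% of UMIs from mitochondrial genes were dropped. A T cell then had to hold at least 4 UMIs of Cd3d, Cd3e, Cd3g and Trac together, at most 2 of Ncr1, Klre1 and Eomes, at most 1 of Cd79a and Cd79b, and less than 5% of its UMIs from S100a8 and S100a9. The young library gave 160 such cells of 12921 (1.24%, 1.05 to 1.44) and the old library 122 of 13517 (0.903%, 0.750 to 1.08). The genes of this rule chose the members, so their levels are a description and no finding.

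The study profiled blood cells of mice labelled male at 2 months (young) and 24 months (old) with the BD Rhapsody system, which captures single cells in microwells on barcoded beads. Red cells were lysed, and live cells positive for CD45, CD11b and Ly6G were sorted, a gate meant for neutrophils. Each age has 1 library. The labels give no strain, genotype or treatment, and do not say how many animals each library holds. The T cells were therefore a small remainder of a neutrophil sort, and their share of barcodes depends on that sort as well as on the blood. Because neither age has a second library, the ages cannot be tested against each other, no p-value is given, and every difference describes these libraries. Of each pair of values the young comes first. Levels are UMI counts per 1e+06 UMIs (CPM) with an exact Poisson interval, shares of cells have an exact Clopper-Pearson interval, and both 95% intervals cover counting error only.

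Some facts of the libraries bear on all that follows. They held 69599479 and 128826996 UMIs, and 53 barcodes occurred in both. Of the T cell barcodes, 2 of the young were found in the old library as well, and none was called a T cell in both. The labels call the animals male, and the transcripts did not all match. Xist, which coats the silenced X chromosome of females, was seen in 138 of 160 young and 112 of 122 old T cells, at 635 and 729 CPM. The Y-linked Eif2s3y had 0 UMIs in both whole libraries, where Xist stood at 160.4 and 210.1 CPM. Kdm5d and Uty, also Y-linked, had 0 UMIs in T cells of both libraries, and 0 and 5 and 14 and 3 in the whole libraries. Only Ddx3y of these Y-linked genes was seen in T cells, with 15 and 5 UMIs, and had 1329 and 967 in the whole libraries.

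T cells are lymphocytes that recognise antigen through a T cell receptor, a pair of variable chains held in the membrane by the CD3 chains. Cells with CD4 help other immune cells or, as regulatory T cells, restrain them, and cells with CD8 kill infected cells. Naive T cells, which have not met their antigen, circulate between blood and lymph nodes and keep the transcription factors Lef1 and Tcf7. Effector and memory cells have met antigen and carry chemokines and cytotoxic proteins ready for use. In mice, as in people, the blood of aged animals is known to hold fewer naive and more memory T cells.

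Markers that the rule had not used were high in these cells too. Il7r, the receptor for the survival cytokine IL-7, stood at 1013 CPM (963 to 1064) against 993 CPM (935 to 1055) in T cells, 54.4 against 115 CPM in cells gated as natural killer (NK) cells, 4.27 against 1.58 CPM in B cells and 0.766 against 0.672 CPM in neutrophils. Lef1 stood at 1002 CPM (952 to 1053) against 368 CPM (333 to 406) in T cells and 205 against 177 CPM in NK cells. The T cell receptor beta constant gene Trbc2 reached 1388 CPM (1329 to 1448) against 1049 CPM (989 to 1112), with 151 against 78.2 CPM in NK cells and 1.78 against 1.58 CPM in B cells. Of the rule's own genes, Cd3d stood at 666 CPM (626 to 708) against 727 CPM (677 to 779.7), Cd3e at 494 CPM (459 to 530.1) against 426 CPM (388 to 467) and Trac at 387 CPM (357 to 419.5) against 302 CPM (269.7 to 336). The plot of marker genes by cell class sets these 5 genes side by side.

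**Figure D1:**
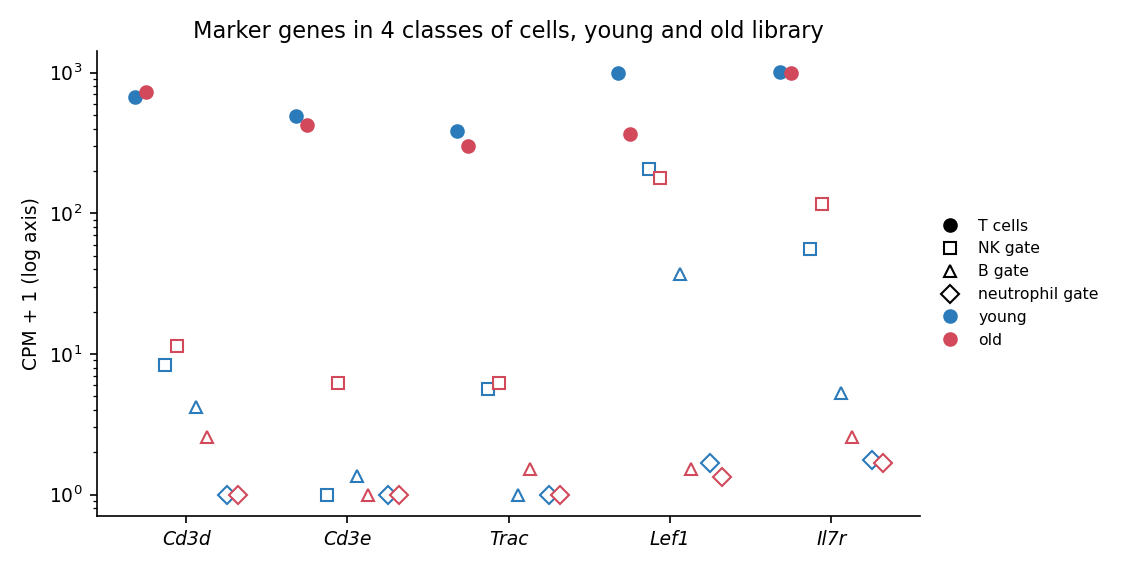
Summed CPM plus 1 (log axis) of Cd3d, Cd3e, Trac, Lef1 and Il7r in T cells (filled circles), NK gate (squares), B gate (triangles) and neutrophil gate (diamonds), 1 point per library, young blue and old red. All 5 genes were highest in T cells of both libraries. Cd3d, Cd3e and Trac were used to choose the T cells and were limited in the other gates, while Lef1 and Il7r were not. Lef1 stood at 1002 in young and 368 CPM in old T cells.

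The genes that most set these cells apart from B cells, NK cells and neutrophils of the same libraries were T cell genes. Outside the rule, Cd8b1, the CD8 beta chain, led with 381 CPM (351 to 413) against 405 CPM (368 to 445). Next came Camk4, a calcium-dependent kinase of T cell activation, Themis, a regulator of receptor signalling in the thymus, Cd4, Cxcr6, a chemokine receptor, and the surface receptors Cd5 and Cd6. Themis stood at 777 CPM (734 to 822) against 719 CPM (669 to 771) and at most at 10.4 CPM in the other gates of either library. Bcl11b, the transcription factor that fixes T cell identity, and Icos, a costimulatory receptor, also stood among the leading 20.

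Transcripts of Ly6G and CD11b, which define the sort for neutrophils, were low in the T cells, while Ptprc, which encodes CD45 of all white blood cells, stood at 1472 against 1413 CPM. Ly6g stood at 5.2 CPM (2.24 to 10.2) against 54.6 CPM (41.5 to 70.4) in T cells and 117 against 947 CPM in neutrophils, and Itgam, which encodes CD11b, at 50.7 and 49.95 CPM in T cells and 674 against 579 CPM in neutrophils. S100a8 and S100a9 made up a median of 0.159% of UMIs per young T cell and 0.677% per old T cell. A neutrophil profile of the same library scaled to their summed S100a8 and S100a9 would amount to 2.81% and 3.003% of T cell UMIs. The 12 neutrophil markers together stood at 4373 against 10661 CPM in T cells. Subtracting that profile left 81 genes higher and 60 lower by the rule below, against 82 and 63. The profile is scaled to S100a8 and S100a9, which the choice of cells limited, so it cannot measure all neutrophil RNA in these cells. Before subtraction, 7 of 10 neutrophil markers measured outside the rule were at least 2-fold higher in old T cells and 1 was lower. Over all genes at 20 CPM or more, 2.68% were higher and 2.58% lower. The full part of neutrophil RNA in the differences was not tested.

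Over all T cells, depth per cell was close in both libraries. The median young T cell held 8566.5 UMIs and 2940.5 genes and the median old one 7911.5 UMIs and 2807.5 genes, over 1539374 and 1081055 UMIs in all. Of the 4 T cell rule genes, the median was 20 UMIs per young and 16.5 per old T cell. At the edge of that rule, 2 young and 3 old cells held exactly 4 such UMIs, and 5 and 0 further barcodes held 3 and met the other limits. The neutrophil limit alone kept out 10 young and 22 old barcodes, and the limit on Ncr1, Klre1 and Eomes alone 14 and 24.

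CD8-gate cells took a larger share of the assigned cells in the old library, with intervals that overlapped slightly. A cell with a UMI of Cd8a or Cd8b1 and none of Cd4 is called CD8-gate here, and one with Cd4 and neither CD8 chain CD4-gate. The young library gave 65 CD8-gate and 48 CD4-gate cells, with 3 cells holding both and 44 unassigned. The old library gave 78 and 25, with 2 holding both and 17 unassigned. CD8-gate cells thus made up 57.5% (47.9 to 66.8) of the young and 75.7% (66.3 to 83.6) of the old assigned cells. Median depth was 8843 against 8952 UMIs in CD8-gate cells, but 8906.5 against 6757 in CD4-gate and 7952 against 6674 in unassigned cells. Cd4 is a low transcript, seen in CD4-gate cells at 256 against 301 CPM, while Cd8b1 stood at 884 against 591 CPM in CD8-gate cells. When every cell was thinned to 1000 UMIs, 44 of 53 young (83.0%) and 46 of 53 old cells (86.8%) that kept a call were CD8-gate. Cd4 was then seen in 9 young and 7 old T cells, against 51 and 27 before thinning, so that these shares cannot compare the libraries. Over all T cells Cd8a stood at 139.7 against 155 CPM, Cd8b1 at 381 against 405 CPM and Cd4 at 83.2 against 58.3 CPM, all within 2-fold.

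Differences between the ages were counted over all genes first. Summed over the T cells of each library, 3550 genes averaged 50 CPM or more over both. By size alone, 82 of them (2.31%) were at least 2-fold higher and 63 (1.77%) at least 2-fold lower in the old T cells, with 1 CPM added to each value. Of the 82, 24 were higher in neutrophils than in T cells of the old library and 4 were haemoglobin genes. Of the 63, 13 were higher in neutrophils of the young library. The median gene shifted by -0.0740 log2. Among the 6555 genes at 20 CPM or more, where gene lists were counted, 176 (2.68%) were higher and 169 (2.58%) lower, with a median of -0.0563 log2. Each list count over all T cells below stands beside these shares.

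**Figure D2:**
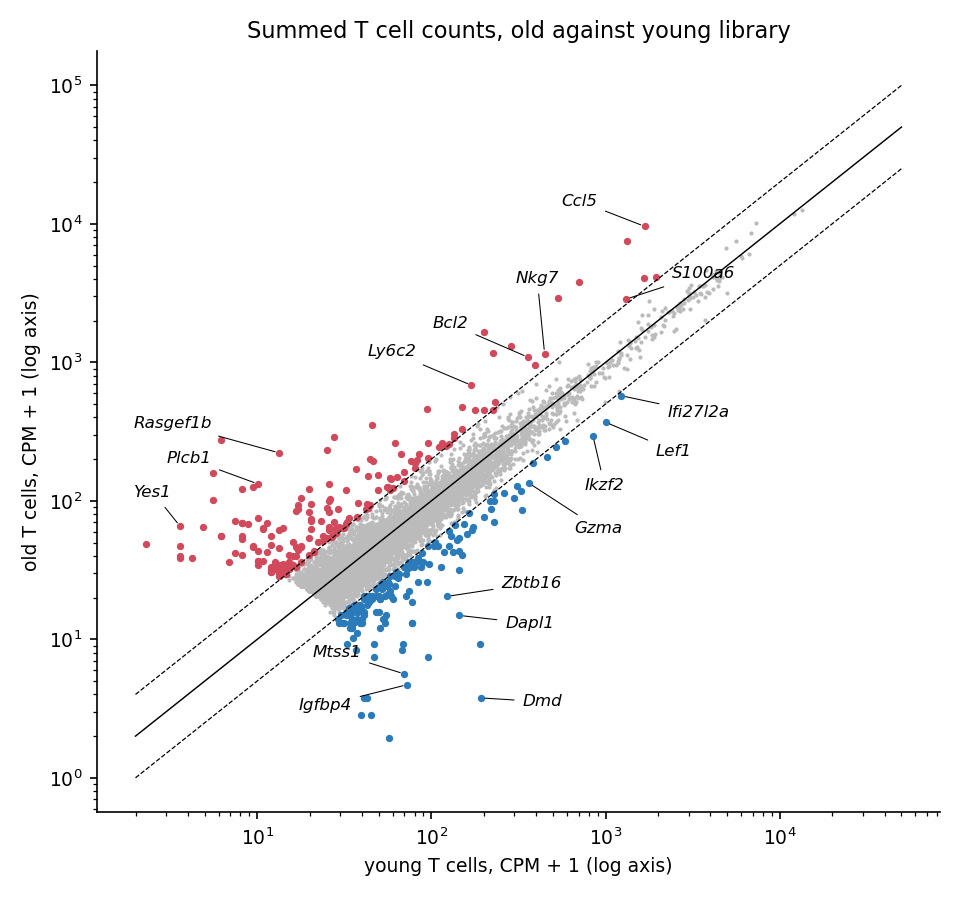
Summed T cell CPM plus 1 of each gene that averaged 20 CPM or more over both libraries, young on the x axis and old on the y axis, both log axes. The solid line is equality and the dashed lines are 2-fold; red points were at least 2-fold higher and blue points at least 2-fold lower in old T cells. Ccl5 (1675 against 9592 CPM) lies far above the line at high level, and Lef1 (1002 against 368 CPM) and Ikzf2 (846 against 293 CPM) below it.

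Genes of effector cells were higher in the old T cells. Ccl5, a chemokine that memory and effector T cells store as transcript, was the most abundant of these genes. It stood at 1675 CPM (1611 to 1741) against 9592 CPM (9409 to 9779), a difference of 5.73-fold (5.48 to 5.98), and was detected in 56 of 160 young and 97 of 122 old cells. Among CD8-gate cells, 28 of 65 young and 75 of 78 old cells held a Ccl5 UMI, at 3162 against 10654 CPM. Among CD4-gate cells 12 of 48 young and 13 of 25 old cells held one, at 218 against 8016 CPM. Young CD4-gate cells with a UMI held a median of 121 CPM of Ccl5 and the old ones 16251 CPM. Ccl5 is also a gene of NK cells, where it stood at 11311 against 12935 CPM. In neutrophils it was near background, at 16.2 against 14.8 CPM, and the scaled neutrophil profile would add 0.455 and 0.445 CPM.

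Several effector genes encode parts of the cytotoxic granule. Nkg7, a membrane protein of cytotoxic granules, stood at 446 CPM (413 to 480.3) against 1157 CPM (1094 to 1223) and was 2.6-fold (2.36 to 2.85) higher in the old T cells. Perforin (Prf1), which opens the target cell membrane, stood at 19.5 CPM (13.1 to 27.8) against 73.1 CPM (57.9 to 91.1), and granzyme B (Gzmb), a protease that enters through it, at 62.4 CPM (50.5 to 76.2) against 147 CPM (125 to 172). Granzyme M (Gzmm) stood at 9.74 CPM (5.45 to 16.1) against 62.9 CPM (48.8 to 79.7), and the protease inhibitor Cst7 at 15.6 CPM (9.99 to 23.2) against 83.3 CPM (66.9 to 102). Fasl, a ligand that triggers death of target cells, was seen in 10 of 160 young and 34 of 122 old cells. Granzyme A went the other way. Gzma stood at 362 CPM (332 to 393) against 133 CPM (112 to 157), in 13 young and 10 old cells, and 1 young cell held 241 of the 557 young UMIs.

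Granzyme K, a granzyme known from memory-type T cells that gather in aged mice, was found in more of the old than of the young T cells. Gzmk UMIs were found in 12 of 160 young and 49 of 122 old cells, at 35.7 CPM (26.9 to 46.5) against 167 CPM (144 to 194), a difference of 4.69-fold (3.45 to 6.46). Of the 55 young Gzmk UMIs 45 were in CD8-gate cells, and of the 181 old ones 89 were in CD8-gate and 50 in CD4-gate cells. In CD8-gate cells Gzmk stood at 68 against 121 CPM, within 2-fold, with 10 of 65 and 31 of 78 cells holding a UMI. In CD4-gate cells it had 0 UMIs in 48 young cells, which allows a share of up to 7.40%, and was seen in 9 of 25 old cells (36.0%, 18.0 to 57.5) at 251 CPM. Neutrophils held 0.589 against 0.342 CPM.

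The 250 bases before the RefSeq start are shown for Gzmk, Dapl1 and Igfbp4, out of 8 genes found of 10 looked for. These 3 were kept because no GENCODE gene has an exon in their stretches, and matches in the others are not given. Gzmk is a granzyme that was higher in the old T cells, and Dapl1 and Igfbp4 had the lowest old over young ratios of the naive gene list. With so few stretches, matches cannot be compared between higher and lower genes. The stretches were searched on both strands for the cores CTTTGA (bound by Tcf7 and Lef1), GGTGTGA (T-box factors such as Eomes) and TGTGGT (Runx factors), which occur in 13.8%, 3.33% and 14.05% of 32851 RefSeq promoters of that length. Letters in capitals mark a match. The Gzmk stretch is at chr13:113180966-113181215 on the minus strand (build GRCm38.p6), inside the annotated span of Gzmk and in no GENCODE exon. The Dapl1 stretch is at chr2:59484403-59484652 and the Igfbp4 stretch at chr11:99040994-99041243, both on the plus strand just before the first exon.
Gzmk: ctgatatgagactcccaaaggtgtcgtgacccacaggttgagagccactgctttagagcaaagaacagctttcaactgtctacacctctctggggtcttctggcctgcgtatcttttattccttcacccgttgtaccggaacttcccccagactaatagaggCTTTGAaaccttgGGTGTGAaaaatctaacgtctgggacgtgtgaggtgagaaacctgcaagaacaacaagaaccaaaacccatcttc
Dapl1: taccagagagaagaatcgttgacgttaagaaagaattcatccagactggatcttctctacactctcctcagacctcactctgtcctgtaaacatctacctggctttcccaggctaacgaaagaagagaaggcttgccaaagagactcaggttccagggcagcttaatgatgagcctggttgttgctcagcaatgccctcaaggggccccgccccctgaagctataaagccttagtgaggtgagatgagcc
Igfbp4: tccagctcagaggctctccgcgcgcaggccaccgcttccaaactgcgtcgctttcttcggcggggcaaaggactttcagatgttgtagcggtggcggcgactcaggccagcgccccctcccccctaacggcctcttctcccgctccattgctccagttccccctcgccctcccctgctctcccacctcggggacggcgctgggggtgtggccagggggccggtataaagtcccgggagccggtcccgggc
Gzmk held CTTTGA at 88 to 83 bases and GGTGTGA at 75 to 69 bases before the start, and the other 2 stretches held none of the 3 cores. A match describes letters only and was not tied to binding here.

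As a group, 12 of the 21 effector genes measured at 20 CPM or more were at least 2-fold higher in old T cells, 1 was lower and 8 lay within 2-fold, with a median of 1.16 log2. The background of all 6555 genes was 2.68% higher and 2.58% lower. Besides those above, the higher members were Ctla2a (231 against 515 CPM) and Ctla2b, protease inhibitors, Klrc1, an NK-type receptor, and Prdm1, the transcription factor of terminal effector cells. Id2 (257 against 502 CPM), Ctsw (96.1 against 191 CPM) and Tbx21 (33.1 against 63.8 CPM), which encodes the effector transcription factor T-bet, were just short of 2-fold. Within CD8-gate cells 7 of 18 effector genes at 50 CPM or more there were higher and 1 lower (median 0.82 log2), beside 3.87% and 2.29% of all genes there. Within CD4-gate cells 4 of 8 were higher and 0 lower (median 1.10 log2), beside 5.79% and 5.14%. The rule's joint limit on Ncr1, Klre1 and Eomes bears on this list: without it, the list median was 0.61 log2. Which of these genes moved the median was not tested.

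**Figure D3:**
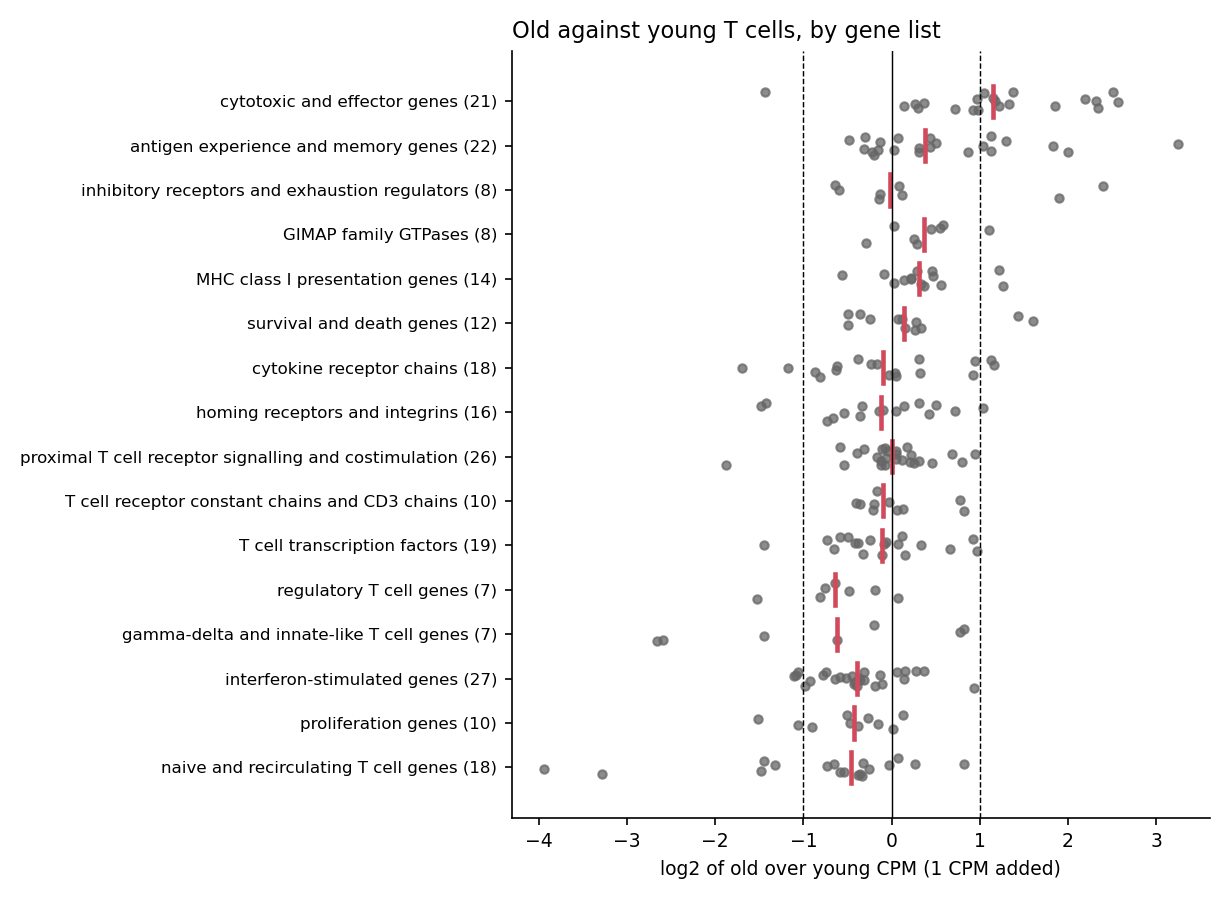
Log2 ratio of old over young T cell CPM (1 CPM added) for each measured member of 16 gene lists, with the number measured in parentheses. Grey points are genes, red bars the list medians and dashed lines 2-fold. The effector list has its median at 1.16 and the naive list at -0.46.

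Counted by cell, effector transcripts were found in a larger share of old than of young T cells. After thinning each cell to 1000 UMIs, 34 of 160 young cells (21.3%, 15.2 to 28.4) and 95 of 122 old cells (77.9%, 69.5 to 84.9) held at least 2 UMIs of Ccl5, Nkg7, Gzma, Gzmb, Gzmk and Cst7 together. Without thinning the shares were 52.5% and 86.9%. The same measure found 1 of 1997 young and 2 of 1976 old neutrophils and 0 of 387 young and 0 of 208 old B cells. Both gates should lack these genes, but both also limit the rule's T cell and NK genes. Their low counts were thus partly set by the gates. No T cell held under 1000 UMIs, and the median depth was 4293 and 7256 UMIs per neutrophil and 6298 and 7785 per B cell before thinning. In the CD8 gate 29.2% of young and 94.9% of old cells met it after thinning, in the CD4 gate 10.4% and 44.0%, and among unassigned cells 22.7% and 58.8%. Without thinning, most young CD8-gate cells met it too, at 83.1% of young and 98.7% of old ones. The unthinned shares were 29.2% and 68.0% in the CD4 gate and 34.1% and 64.7% among unassigned cells. The old share was thus the higher within each gate as well as over all T cells.

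**Figure D4:**
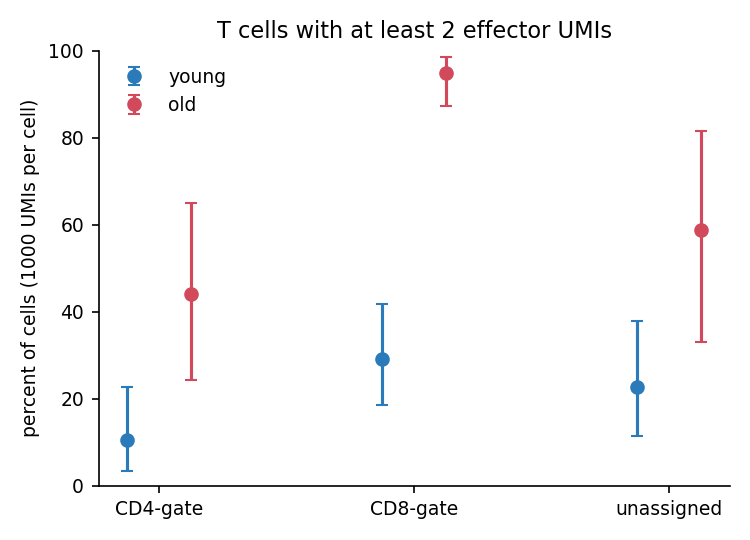
Percent of cells with at least 2 UMIs of 6 effector genes after thinning to 1000 UMIs per cell, in CD4-gate, CD8-gate and unassigned T cells, young blue and old red. Bars are 95% Clopper-Pearson intervals. The old effector share was 94.9% against 29.2% in CD8-gate cells and 44.0% against 10.4% in CD4-gate cells. Without thinning, which is not drawn, the old share was 98.7% against 83.1% in CD8-gate and 68.0% against 29.2% in CD4-gate cells.

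Of 18 measured naive T cell genes, 5 were at least 2-fold lower in the old T cells and 0 higher, beside 2.58% and 2.68% of all genes. Lef1, the transcription factor that keeps cells naive, stood at 1002 CPM (952 to 1053) against 368 CPM (333 to 406), 2.72-fold (2.44 to 3.05) lower, and was seen in 142 of 160 young and 82 of 122 old cells. Ccr7, the receptor that guides naive cells into lymph nodes, stood at 159 CPM (139.8 to 180.4) against 56.4 CPM (43.2 to 72.5), 2.82-fold (2.12 to 3.8) lower. Dapl1, a gene of quiescent T cells, stood at 144 CPM (125 to 164) against 13.9 CPM (7.77 to 22.9), in 43 young and 4 old cells, and Igfbp4, which encodes a binding protein of insulin-like growth factors, at 71.5 CPM (58.7 to 86.1) against 3.7 CPM (1.01 to 9.47), in 36 and 4 cells. Actn1, an actin crosslinker, stood at 219 against 87 CPM. The other 13 were within 2-fold, with a list median of -0.46 log2 beside -0.0563 for all genes.

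Most naive genes differed less. Il7r (1013 against 993 CPM), Tcf7 (344 against 265 CPM), Klf2 (860.1 against 672 CPM) and S1pr1 (193 against 153 CPM), the receptor for exit from lymph nodes, stayed within 2-fold. Nsg2 stood at 59.8 CPM (48.2 to 73.3) against 106 CPM (87.8 to 128), within 2-fold. It stood at 62 against 142 CPM in CD8-gate and 49.5 against 5.02 CPM in CD4-gate cells, opposite directions whose difference was not tested. Among CD4-gate cells 7 of 13 naive genes at 50 CPM or more there were lower and 0 higher (median -1.34 log2), beside 5.14% and 5.79% of all genes there. Among CD8-gate cells 4 of 16 were lower and 1 higher (median -0.50 log2), beside 2.29% and 3.87%. These gates hold 25 and 78 old cells, and the difference between them was not tested.

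**Figure D5:**
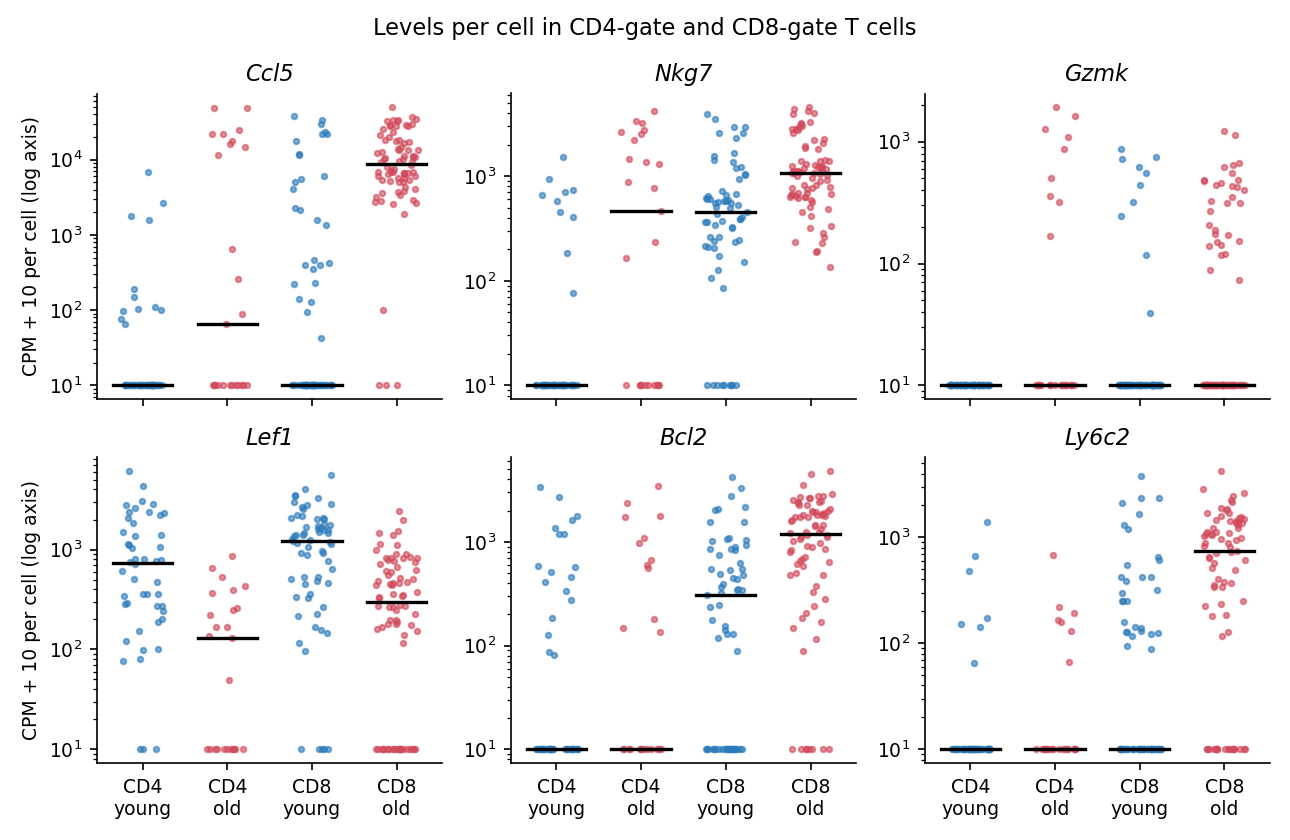
CPM per cell plus 10 (log axis) of Ccl5, Nkg7, Gzmk, Lef1, Bcl2 and Ly6c2 in CD4-gate and CD8-gate cells of the young (blue) and old (red) library, 1 point per cell, with the median as a black bar. Cells without a UMI sit at 10. Old CD8-gate cells have a Ccl5 median of 8843 CPM, whereas the young CD8-gate median is 0, and the Lef1 medians are 1214 young and 292 old.

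Genes of antigen experience were higher in part. Leaving out Eomes, a gene of the rule, 6 of 21 measured memory genes were at least 2-fold higher and 0 lower, with a median of 0.31 log2. Over all genes the shares were 2.68% and 2.58%, with a median of -0.0563 log2. Il2rb, the IL-2 and IL-15 receptor chain of memory CD8 cells, stood at 149 CPM (131 to 170.0) against 327 CPM (294 to 363). Without the limit on NK genes the ratio of gene Il2rb was 0.64 log2, under 2-fold. Cxcr3, a chemokine receptor for inflamed tissue, was higher as well, at 59.1 against 122 CPM. Eomes, the T-box factor of memory CD8 cells, was seen in 8 of 160 young and 51 of 122 old cells, under a rule that caps what a member may hold. Cd44, the usual surface marker of memory, stood at 245 CPM (221 to 271) against 257 CPM (228 to 289), within 2-fold.

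Some of these 6 are also genes of myeloid cells. Ly6c2, which encodes the surface antigen Ly6C of memory CD8 cells and monocytes, stood at 169 CPM (149 to 191) against 682 CPM (633 to 733), and the calcium-binding S100a6 at 1308 CPM (1251 to 1366) against 2857 CPM (2758 to 2960.0). Neutrophils held Ly6c2 at 118 against 564 CPM and S100a6 at 5789 against 14086 CPM, and the scaled neutrophil profile would give 3.32 and 16.9 CPM of Ly6c2 and 162 and 423 CPM of S100a6. Anxa1 stood at 48.1 against 119 CPM in T cells and 907 against 2173 CPM in neutrophils. Without the cells described below that held markers of other types, the ratio of Anxa1 was 0.76 log2, under 2-fold.

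Inhibitory receptors were low in both libraries. Pdcd1, which encodes PD-1, stood at 5.85 CPM (2.67 to 11.1) against 35.2 CPM (24.9 to 48.2), in 6 young and 23 old cells, and Lag3 at 10.4 CPM (5.94 to 16.9) against 41.6 CPM (30.4 to 55.7), with 16 of 45 old UMIs in 1 cell. Tox, a transcription factor of lasting stimulation, stood at 511 against 557 CPM, and Ctla4, which regulatory T cells also carry, at 179.9 against 115 CPM. Without the cells described below that held markers of other types, the ratio of gene Ctla4 was -1.03 log2 in place of -0.65. Of 8 measured genes of this list 2 were higher and 0 lower, beside 2.68% and 2.58% of all genes.

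Survival genes were led by Bcl2, which blocks cell death at mitochondria. It stood at 357 CPM (328 to 388) against 1089 CPM (1027 to 1153), 3.05-fold (2.75 to 3.38) higher in the old T cells, and its CD8-gate and CD4-gate levels were 537 against 1338 CPM and 274 against 371 CPM. Its relative Bcl2l1 stood at 18.8 CPM (12.6 to 27.1) against 52.7 CPM (39.9 to 68.3), and Mcl1 at 335 against 283 CPM. The other 10 of 12 measured genes were within 2-fold, where 2.68% of all genes were higher and 2.58% lower.

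Outside the rule, genes of the antigen receptor and its signalling were nearly all within 2-fold. None of 6 measured receptor and CD3 genes that the rule had not used was 2-fold apart, including Trbc1 (531 against 553 CPM), Trbc2 (1388 against 1049 CPM) and Cd247 (529 against 519.9 CPM), the zeta chain. Of 26 genes of receptor signalling and costimulation only Trat1 passed 2-fold, beside 2.68% of all genes higher and 2.58% lower. Trat1, an adaptor of the receptor complex, was lower in old T cells, at 149 CPM (130.1 to 169) against 39.8 CPM (28.8 to 53.6). Ptpn22, a phosphatase that damps the receptor, came close from the other side, at 313 against 603 CPM. Variable segments were too sparse to describe the repertoire, with 46 and 34 UMIs of alpha or delta and 28 and 21 of beta segments.

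Some genes of CD4 help and of regulatory cells were lower, beside fewer CD4-gate cells (48 against 25). Cd40lg, with which helper cells activate B cells, stood at 40.3 CPM (30.9 to 51.6) against 2.78 CPM (0.572 to 8.11), in 33 young and 2 old cells. Among CD4-gate cells 15 of 48 young and 2 of 25 old cells held it. Cells were not thinned for these counts, and the old CD4-gate cells were shallower, with a median of 8906.5 against 6757 UMIs. Ikzf2, which encodes the transcription factor Helios of regulatory T cells, stood at 846 CPM (800.5 to 893) against 293 CPM (262 to 327), 2.88-fold (2.55 to 3.27) lower, and within CD4-gate cells at 1939 against 939 CPM. By cell the CD4 gate did not show this order: Ikzf2 was seen in 26 of 48 young and 17 of 25 old cells, with medians of 431 and 469 CPM over all of them. Among those with a UMI the medians were 2641 and 744 CPM. Foxp3, the master factor of regulatory cells, was seen in 29 young and 10 old T cells, and in 39.6% of young (19 of 48) and 28.0% of old (7 of 25) CD4-gate cells. Foxp3 was in 0 of 65 and 0 of 78 CD8-gate cells, which allows shares of up to 5.52% and 4.62%. Its level among CD4-gate cells was 127 against 136 CPM. The 1 lower gene of 7 measured in the regulatory list was Ikzf2, and 0 were higher, beside 2.58% and 2.68% of all genes.

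Of 7 measured genes of innate-like T cells, 3 were at least 2-fold lower in the old library, each on few cells, and 4 were within 2-fold. Of all genes at 20 CPM or more, 2.58% were lower. Zbtb16, which encodes PLZF, the factor of natural killer T and other innate-like T cells, stood at 122 CPM (105 to 141) against 19.4 CPM (12 to 29.7), in 18 young and 6 old cells. Il23r, a receptor of cells that make IL-17, stood at 46.1 CPM (36 to 58.2) against 6.48 CPM (2.6 to 13.3), in 10 and 3 cells, and Blk, a kinase also used by B cells, at 34.4 against 12 CPM, in 10 and 6. Zbtb16 was lower in neutrophils too, at 59.9 against 8.18 CPM. Trdc, the constant chain of the gamma-delta receptor, was in 11 and 5 cells, at 33.1 against 28.7 CPM, within 2-fold, but without the cells that held markers of other types the ratio of gene Trdc was -1.12 log2. Most of the cells with Trdc were neither CD4-gate nor CD8-gate: 8 young and 4 old.

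Among the 12 largest ratios upward were several genes with no place in the lists. Rasgef1b, a Ras-family exchange factor, stood at 12.3 CPM (7.43 to 19.3) against 221 CPM (194 to 251), a difference of 17.9-fold (11.2 to 30.3), in 8 young and 55 old cells, and both gates carried it, at 13.6 against 239 CPM in CD8-gate and 12.9 against 206 CPM in CD4-gate cells. In NK cells of the same libraries it stood at 14.6 against 10.4 CPM and in B cells at 39.8 against 43.1 CPM. Yes1, a Src-family kinase, stood at 2.6 CPM (0.708 to 6.65) against 64.8 CPM (50.5 to 81.8), in 3 and 30 cells, of which 28 old ones were CD8-gate. Gas7 stood at 8.44 CPM (4.5 to 14.4) against 124 CPM (104 to 147), in 10 and 48 cells, and was higher in old B cells as well, at 4.98 against 118 CPM. Smpdl3b, a membrane phosphodiesterase, was seen in 7 and 44 cells, Serpina3g, a protease inhibitor, in 5 and 35, and Fcgrt, the receptor that recycles antibodies, in 10 and 33. Without the limit on NK genes the log2 ratio of gene Gas7 was 2.10 in place of 3.73 and that of gene Serpina3g 1.80 in place of 3.16. Epha3, a receptor kinase, was seen in 3 and 22 cells and Pros1, protein S, in 7 and 27.

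Of the rest of those 12, Eomes is a rule gene given above, and the others had many of their old UMIs in 1 cell. Plcb1, a phospholipase, had 65 of its 142 old UMIs in 1 cell, Fn1, fibronectin, 35 of 69, and the coagulation factor F13a1 22 of 59. Fn1 and F13a1 are markers of monocytes. In 7 young (4.38%) and 21 old T cells (17.2%) at least 5 UMIs came from markers of monocytes, dendritic cells or platelets, and in 1 young and 3 old cells at least 5% of UMIs came from erythroid genes. Without these 8 young and 24 old cells, the ratio of Plcb1 was -0.08 log2 in place of 3.71. That of Ccl5 was then 2.61 and that of Lef1 -1.36, the effector median was 1.26 and the naive median -0.45 log2. The count of genes became 85 higher and 80 lower.

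Among the 12 largest ratios downward, Dmd, which encodes dystrophin, came first at 191 CPM (169.8 to 214) against 2.78 CPM (0.572 to 8.11), in 78 young and 3 old cells. It was lower in B cells (197 against 14.2 CPM) and neutrophils (52.4 against 0.926 CPM) too, so the difference was not limited to T cells. For Mtss1 and Chn2, levels in another class of cells are given as well. Mtss1, an actin regulator, stood at 68.9 CPM (56.4 to 83.3) against 4.63 CPM (1.5 to 10.8) in T cells, in 60 and 5 cells, and at 472 against 459 CPM in B cells. Chn2, a GTPase regulator, stood at 94.8 CPM (80.1 to 112) against 6.48 CPM (2.6 to 13.3), and at 281 against 203 CPM in NK cells. Ramp1, a coreceptor for the neuropeptide CGRP, stood at 76.7 CPM (63.4 to 91.8) against 12 CPM (6.4 to 20.6), in 54 and 5 cells, and Trib2, a pseudokinase, at 76 CPM (62.9 to 91.1) against 17.6 CPM (10.6 to 27.4), in 72 and 14. Rgcc stood at 143 CPM (125 to 163) against 30.5 CPM (21 to 42.9) and Auts2 at 76 CPM (62.9 to 91.1) against 12 CPM (6.4 to 20.6). St8sia6, a sialyltransferase, stood at 66.9 CPM (54.6 to 81.1) against 7.4 CPM (3.19 to 14.6), and 22 of its 37 young cells were CD4-gate. Myo1e, a motor protein, stood at 53.3 CPM (42.4 to 66.1) against 12 CPM (6.4 to 20.6).

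Of 16 measured homing genes 1 was at least 2-fold higher and 2 were lower in old T cells. Of 18 measured cytokine receptor genes 2 were higher and 2 lower, and the others of both lists were within 2-fold. Over all genes 2.68% were higher and 2.58% lower. Ifngr1, a chain of the interferon-gamma receptor, stood at 199 CPM (178 to 223) against 449 CPM (409.6 to 490.4) and was higher in each gate, at 168 against 416 CPM in CD8-gate and 228 against 532 CPM in CD4-gate cells. Il6st, the shared signalling chain of IL-6 receptors, stood at 83.2 CPM (69.4 to 98.9) against 25 CPM (16.5 to 36.3), and Tgfbr1, a chain of the TGF-beta receptor, at 82.5 against 36.1 CPM. Itgae, which encodes the integrin CD103 that holds T cells in epithelia, stood at 138 CPM (120.4 to 158) against 50.9 CPM (38.3 to 66.2). The lower level was in CD8-gate cells, at 122 against 8.13 CPM in 30 of 65 and 4 of 78 cells, whereas CD4-gate cells stood at 155 against 141 CPM. Ccr9, the gut-homing receptor, was seen in 29 young and 2 old cells. Ccr9 was named after its values were seen.

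Interferon-stimulated genes leaned lower, with 3 of 27 measured at least 2-fold lower, 0 higher and a median of -0.39 log2. Of all genes at 20 CPM or more, 2.58% were lower and 2.68% higher, with a median of -0.0563 log2. Ifi27l2a stood at 1233 CPM (1178 to 1289.7) against 573 CPM (528 to 619.5), and was lower also in B cells, at 503 against 228 CPM, and neutrophils, at 721 against 215 CPM. Irf9, a part of the interferon signalling complex, stood at 69.5 against 32.4 CPM, and Ifi213, a member of a family of similar genes, at 103 against 49 CPM. Ly6a, which encodes Sca-1, went the other way with 182 against 348 CPM, just under 2-fold. Of 14 genes of antigen presentation on MHC class I, H2-Q7 (394 against 952 CPM) and H2-Q6 (79.9 against 187 CPM) were higher, close copies between which reads may be split. The other 12 were within 2-fold, with a list median of 0.31 log2.

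Dividing cells were few. At least 3 UMIs of Mki67 and Top2a together were found in 13 young (8.13%, 4.40 to 13.5) and 3 old T cells (2.46%, 0.510 to 7.02). Mki67, present through the cell cycle, stood at 68.9 against 32.4 CPM, with 17 of 35 old UMIs in 1 cell, and Ccnb2, a cyclin of mitosis, at 39 against 13 CPM. These were the 2 of 10 measured proliferation genes that were at least 2-fold lower, beside 2.58% of all genes. Without the limit on NK genes the ratio of gene Mki67 was -0.34 and that of gene Ccnb2 -0.51 log2, both within 2-fold. Cdkn1a, a cell cycle inhibitor that builds up in senescent cells, had 0 young and 4 old UMIs. All 80 measured ribosomal protein genes, all 78 nuclear genes of oxidative phosphorylation and all 13 mitochondrial genes were within 2-fold. Of the 8 GIMAP GTPases, which support lymphocyte survival, Gimap7 was at least 2-fold higher, at 79.3 against 171 CPM, beside 2.68% of all genes.

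Markers of other cell types inside the T cells were low except for erythroid and neutrophil genes. Erythroid markers summed to 2777 against 15946 CPM over all 8 genes, with up to 28.1% of UMIs in 1 young and 57.8% in 1 old cell, while Slc4a1 of that list had 0 UMIs in both. Leaving out the cells above with 5% or more of such UMIs is part of the alternative given for Ccl5 and Lef1. Classical monocyte markers summed to 389 against 1519 CPM, a list that includes Ly6c2. NK markers summed to 1145 against 1133 CPM with Ncr1 at 0 UMIs in both, where 3 UMIs would equal 1.95 and 2.78 CPM. B cell markers summed to 288 against 163 CPM, dendritic cell markers to 133 against 129.5 CPM and platelet markers to 106.5 against 123 CPM. The rule limits 2 genes of the NK list, Ncr1 among them, and 2 of the B cell list. Low NK and B cell sums were thus partly set by the choice of cells. Doublets were not called, and 5 young and 3 old T cells held over 2.5 times their library's median T cell UMIs.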

How the data were processed

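Single-cell RNA sequencing gave 1 library per age. The deposited values are raw UMI counts per gene (32285 genes) and barcode. Cell Ranger 7.2.0 is named per the file headers, and build mm10 per the submitters' processing notes. The annotation release, cell calling and intron counting are not given in the sources used here. Nor do they say how the deposited barcodes relate to those of the BD Rhapsody beads.

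T cells, CD4 and CD8 gates and reference gates were set by UMI limits, without clustering. B gate: at least 4 UMIs of Cd79a and Cd79b. NK gate: at least 3 of Ncr1, Klre1 and Eomes, at most 1 of Cd3d, Cd3e and Trac, and at most 1 of Cd79a and Cd79b. Both also had to hold less than 5% S100a8 and S100a9. Neutrophil gate: at least 5% S100a8 and S100a9, with none of the other rule genes. UMIs were summed per class and scaled to CPM. Neutrophil shares used 2000 cells in file order. Doublets were not called. Genes named were the 12 highest and 12 lowest ratios at 50 CPM or more in either library, not higher in neutrophils, up to 4 per list, the 20 most T cell-specific and a fixed set. Itgam, Ly6g, Eomes, Ccr9 and some list members within 2-fold were added. Members and the 38 lists were chosen with earlier results of these data known. Not every gene of the rule is printed.

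Positions came from GENCODE M21 (GRCm38). Promoters came from RefSeq, where 8 of 10 genes looked for were found. Alternatives varied the cell limits, depth, totals, floors and added CPM. On simulated counts with known folds, the step that computes ratios was checked. Python 3.11.15, numpy 2.4.6, scipy 1.17.1 and pandas 2.3.3 were used.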

Additional observations from a re-analysis of the deposited data

Results flagged for a closer look

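Named genes were compared where each class reached 50 CPM or more in either library. Ratios of 3 genes went opposite ways past 2-fold in T cells and B cells of the same libraries. That of 1 gene did so in the T cell gates. Nsg2 did so too in the gates but was under 50 CPM in CD4-gate cells. None of these differences was tested, since each age has 1 library. Il6st was lower in old T cells, with a ratio of -1.70 log2 and levels of 83.2 (69.4 to 98.9) against 25 (16.5 to 36.3) CPM, and higher in old B cells, with 2.45 log2 and levels of 18.5 (13.8 to 24.3) against 106 (91.4 to 121) CPM. St8sia6 stood likewise, at -3.02 log2 in T cells and 2.37 log2 in B cells, where the levels were 27.4 (21.6 to 34.2) against 145 (129 to 164) CPM. Ms4a4c, which is also a monocyte marker, was higher in old T cells, with 1.90 log2 and levels of 31.2 (23 to 41.3) against 119 (99.6 to 142) CPM, and lower in old B cells, with -1.42 log2 and levels of 257 (239 to 277) against 95.6 (82.2 to 110.5) CPM. Hdc, which makes histamine, had a ratio of -1.03 log2 in CD4-gate and 1.61 log2 in CD8-gate cells, on 29 against 6 and 11 against 39 UMIs. Its CD4-gate levels were 62.5 (41.8 to 89.7) against 30.1 (11.1 to 65.6) CPM, with intervals that overlapped. Its CD8-gate levels were 16.6 (8.30 to 29.8) against 52.9 (37.6 to 72.3) CPM. The 7 basophil and mast cell markers, Hdc among them, summed to 72.1 against 47.2 CPM in T cells and 1268 against 986 CPM in neutrophils. The share of Hdc in the gates that came from neutrophil RNA was not tested.

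Outside the members, 24 old and 14 young barcodes with T cell receptor transcripts were left out by the limit on NK genes alone. Of the 24 old ones, all 24 held Trac, 20 held at least 3 Eomes UMIs and 0 held Ncr1. Of the 14 young ones, 10 held Trac, 5 held at least 3 Eomes UMIs and 10 held Ncr1. In the old ones Ccl5 stood at 15347 CPM and Gzmk at 483 CPM. Ncr1-positive barcodes were thus among the young ones left out and not among the old.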

How the results depend on the processing

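No paired analysis was possible because each age has 1 library and the labels give no replicate numbers. Without the NK limit, the old T cell share was 1.08%, while the young share stayed within its counting error. The effector median was then 0.61 log2, and gene Gzmb came to 0.91 log2, under 2-fold. Without the limit on S100a8 and S100a9, 44 of 134 named genes moved beyond counting error, 114 genes were higher and 74 lower, and the effector and naive medians were 0.87 and -0.65 log2. That alternative took 7 named genes under 2-fold: Cxcr3 (0.71 log2), Gimap7 (0.86), Gzmb (0.89), H2-Q6 (0.97), H2-Q7 (0.98), Ifngr1 (0.96) and Il2rb (0.77). It took 5 others past 2-fold, among them Foxp3 (-1.20). At 1000 UMIs per cell, 263 genes were higher and 266 lower, and CD8-gate shares were 83.0% young and 86.8% old, with Cd4 seen in 9 and 7 cells. A lineage call at 2 UMIs gave a CD8-gate share of 67.0% young, while the old share stayed within its counting error. With a lower floor 139 genes were higher and 132 lower, and with a higher one 49 and 25. Of the genes past 2-fold, 56.6% were higher, 66.2% at the higher floor and 65.6% relative to the median gene. Effector shares without thinning were 52.5% and 86.9%. A limit of 1 UMI after thinning gave 33.8% young, while the old share stayed within its counting error. Within CD4-gate cells, over genes at 20 CPM or more there, the naive median was -1.35 log2, a view also chosen after seeing the data. The ratio of gene Plcb1 turned to -0.0805 log2 without cells holding markers of other types, an alternative chosen after seeing the data. The cause was not tested in any of these. Over 134 named genes, 1711 of 1876 values stayed within counting error, 164 moved and 1 reversed. Limits: 1 library per age, unknown animals, 25 old CD4-gate cells, and genes under 20 CPM resting on few UMIs.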
